A study of Mus musculus with 9 samples.

Results

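The antioxidant genes described here are 10 genes of the mouse redox defence: Nqo1, Hmox1, Gclc, Gclm, Txnrd1, Srxn1, Gsr, Gpx4, Sod1 and Sod2. They were chosen by symbol, and each matched exactly 1 of the 56748 Ensembl genes in the deposited count table. All 10 passed the filter on low counts that left 17171 tested genes, so every member was tested. Brain RNA of mouse embryos was sequenced at embryonic day 14, with 3 libraries in each of 3 groups and 9 in all. By GENCODE M21, Nqo1, Hmox1 and Gsr lie on chromosome 8, Gpx4 and Txnrd1 on chromosome 10, and Srxn1, Gclm, Gclc, Sod1 and Sod2 on chromosomes 2, 3, 9, 16 and 17. Control embryos came with the treatment label saline, a further group with poly(I:C), a synthetic double-stranded RNA used to mimic infection by a virus, and the last with valproic acid, an anticonvulsant that inhibits histone deacetylases. The labels give no genotype, strain, dose, day of exposure, litter or sex for any group, and no treatment shared by all groups. No label says that the 3 libraries of a group came from separate embryos, so each p-value covers the spread between these samples alone. That spread may be technical among the valproic acid libraries, and between replicates 1 and 2 of control or of poly(I:C). Replicate 3 of control and of poly(I:C) differed from replicates 1 and 2 in Y-linked transcripts, as given below.

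NRF2 (gene Nfe2l2) is a transcription factor that the adaptor KEAP1 and the ubiquitin ligase scaffold CUL3 keep low in unstressed cells. When oxidants or electrophiles modify KEAP1, NRF2 accumulates, pairs with a small MAF protein and binds antioxidant response elements, while BACH1 occupies the same elements as a repressor and leaves them when it binds heme. Their classical targets make glutathione, reduce thioredoxin and sulfinic acids, detoxify quinones and break down heme. The superoxide dismutases and Gpx4, the peroxidase that protects membranes from lipid peroxides, complete the set; these 3 are antioxidant enzymes not usually counted among the core targets of NRF2.

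The letters below show matches to the core letters of such an element near the start sites of members. RefSeq promoter windows (250 bases before to 50 after a start site, build GRCm38.p6, used for the letters only, while the submitters' processing notes name GRCm39) were found for 7 of the 10 members, in 12 windows. The motif TGACNNNGC was searched on both strands, and 4 of the 7 genes held it: Gclm, Txnrd1, Srxn1 and Sod1. Among all 27025 genes with a window, 14% held a match. Of the 12 member windows 4 held it, beside 12.4% of all 32851 windows. A looser form, TGANNNNGC, was also searched. It was held by 4 of the 7 genes, beside 45% of all genes, and by 5 of the 12 windows, beside 41.3% of all windows. Nqo1, Gpx4 and Sod2 held none in these windows. Hmox1, Gclc and Gsr had no window and were not searched. The 4 matches to TGACNNNGC all lie on the opposite strand. Each appears here as the reverse complement of the motif and is set in capitals. Sequences run 5′ to 3′ on the plus strand, which is the strand of each gene. For Gclm, Txnrd1 and Sod1 the 200 bases before the start site are given, at chr3:122245357-122245556, chr10:82859006-82859205 and chr16:90220562-90220761, with the match beginning 134, 92 and 56 bases before the start site. For Srxn1, whose match lies just after the start site, 30 bases are given, at chr2:152105542-152105571.
Gclm: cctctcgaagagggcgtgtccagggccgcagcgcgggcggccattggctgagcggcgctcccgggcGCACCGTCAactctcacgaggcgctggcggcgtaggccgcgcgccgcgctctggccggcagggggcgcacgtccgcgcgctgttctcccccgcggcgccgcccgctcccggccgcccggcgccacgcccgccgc
Txnrd1: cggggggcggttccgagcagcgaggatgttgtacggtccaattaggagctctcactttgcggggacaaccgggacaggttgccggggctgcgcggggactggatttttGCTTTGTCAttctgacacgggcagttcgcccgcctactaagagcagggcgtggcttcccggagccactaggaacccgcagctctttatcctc
Sod1: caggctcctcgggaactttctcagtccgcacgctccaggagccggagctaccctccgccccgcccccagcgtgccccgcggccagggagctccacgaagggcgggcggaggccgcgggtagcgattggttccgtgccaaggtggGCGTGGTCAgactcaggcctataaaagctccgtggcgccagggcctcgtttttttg
Srxn1: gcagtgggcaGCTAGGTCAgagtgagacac
A match is a description of letters, not a bound site. None of these 4 genes was called in any comparison below, and Hmox1, the member that was called, was not searched.

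Libraries held 15399974 to 19883131 counts. Markers of the embryonic brain were high in every library (12 neuron and progenitor genes summed to 7606 to 7968 CPM, counts scaled to the library's size), and no member of the marker lists for microglia, red cells, vessel cells, fibroblasts or choroid plexus was at 0 in any library, so the samples also held RNA of these types. In such bulk samples, fewer cells of a type and less RNA per cell cannot be told apart. The female-specific RNA Xist reached 981 to 1055 CPM in each valproic acid library and in poly(I:C) replicate 3, while the other 5 libraries had 0.236 CPM or less. Y-linked genes summed to 196 to 201 CPM in replicates 1 and 2 of the control and poly(I:C) groups and were at 0 elsewhere, so sex-linked transcripts and valproic acid exposure cannot be told apart. Control replicate 3 had neither (Y-linked 0, Xist 0.0498 CPM), so these transcripts do not give its sex. A Y-linked covariate places it with the libraries that carry Xist, and an Xist covariate with those that carry Y-linked counts. Replicate 3 of control and of poly(I:C) lacked the Y-linked counts of replicates 1 and 2, so it was not a repeat of the same RNA. Whether replicates 1 and 2, or the valproic acid libraries, came from separate embryos is not known.

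In control brain the members differed widely in level. Scaled to exon length (CPM per kilobase of merged GENCODE exons, mean ± SD, n = 3), Gpx4 stood highest at 53.0 ± 2.30, followed by Txnrd1 at 37.2 ± 3.95 and Sod1 at 33.5 ± 0.769. Txnrd1 and Sod1 overlapped between libraries (32.6 to 39.9 and 32.9 to 34.3). Gclc followed at 11.1 ± 0.405, then Sod2 at 8.58 ± 0.770 and Gsr at 8.14 ± 0.405, which overlapped each other. Gclm at 6.02 ± 0.511 and Hmox1 at 5.96 ± 0.741 also overlapped, Srxn1 was at 4.85 ± 0.190, and Nqo1 was lowest at 1.27 ± 0.0471. Merged exons include those of rare long isoforms, which lowers the scaled level of genes such as Sod2 (10008 bases). The order at the top also depends on these lengths, which were 1724 bases for Gpx4, 7086 for Txnrd1 and 3970 for Sod1. In control CPM without this scaling, Txnrd1 was at 263, Sod1 at 133 and Gpx4 at 91.4, the reverse place for Gpx4 among these genes. Which of them has the most transcripts was not tested.

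**Figure D1:**
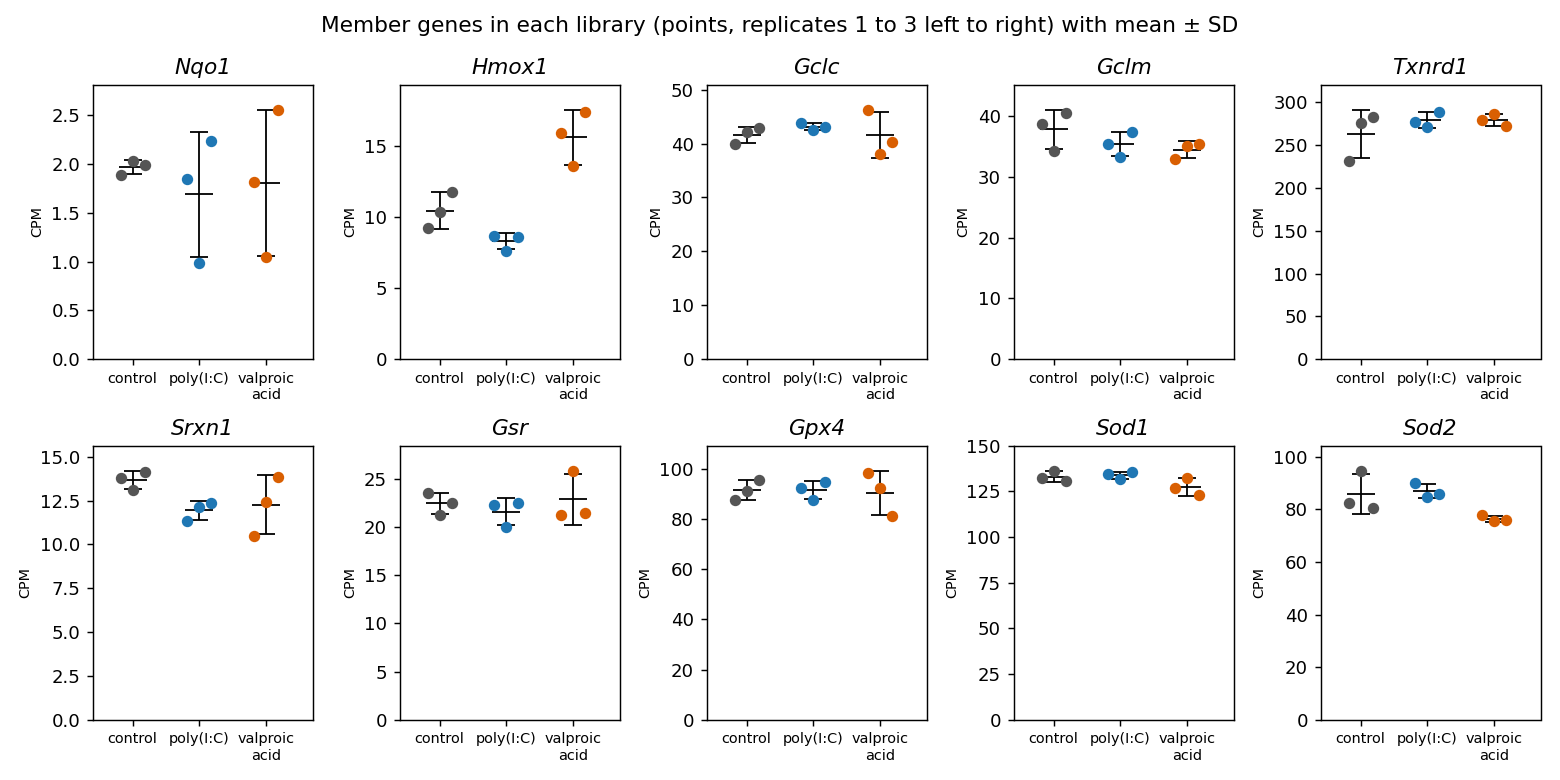
CPM of each member (vertical axes from 0, a scale per gene) in the 9 libraries, with replicates 1 to 3 from left to right in each group and bars for the mean ± SD. The Hmox1 points form 3 levels that do not overlap, the Sod2 points under valproic acid lie below all others, and the remaining genes overlap between valproic acid and control.

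Valproic acid was compared with control to ask whether antioxidant transcripts differ in the exposed embryonic brain. Hmox1, the inducible heme oxygenase that breaks down heme, rose 1.49-fold, and it was the 1 member of 10 that passed the test. The other 9 members, among them the glutathione synthesis genes and Nqo1, did not pass the test. Over all 17171 genes, 6.35% were called by edgeR's quasi-likelihood test at a Benjamini-Hochberg adjusted p under 0.05, so 1 of 10 members is close to the background (3.57% were called higher and 2.78% lower). An unadjusted p under 0.05 was reached by 2 of 10 members, Hmox1 and Sod2, beside 22.1% of all genes. The median log2 fold change of the members was -0.038, beside -0.0033 for all tested genes, and 3 members had a positive and 7 a negative estimate.

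Hmox1 was at 9.21, 10.3 and 11.8 CPM in control replicates 1 to 3 (156, 183 and 237 counts) and at 15.9, 13.6 and 17.4 CPM in valproic acid replicates 1 to 3 (272, 233 and 266 counts). Every valproic acid library lay above every control library. Group means were 10.4 ± 1.30 and 15.6 ± 1.93 CPM (SD, n = 3 each), a log2 fold change of 0.58 (SE 0.122, 95% interval 0.32 to 0.84, edgeR adjusted p = 0.0137). The call was lost without control replicate 1 (adjusted p = 0.0645) or valproic acid replicate 3 (0.0516), with log2 fold changes of 0.49 in both fits. It was also lost with Y-linked expression (0.46, SE 0.145, adjusted p = 0.129) or Xist (0.51, SE 0.240, adjusted p = 0.534) as a covariate in edgeR. Since Xist was high in every valproic acid library and in no control, only poly(I:C) replicate 3 parts it from the exposure in that fit. The poly(I:C) library with Xist, replicate 3, had 8.60 CPM of Hmox1, between the other poly(I:C) libraries.

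Of the other members, the mitochondrial superoxide dismutase Sod2 came nearest to a call. Sod2 was at 82.5, 94.7 and 80.5 CPM in control replicates 1 to 3 and at 77.7, 75.7 and 76.0 CPM in valproic acid replicates 1 to 3. The groups did not overlap, which was true of 25.6% of all tested genes in this comparison, and the log2 fold change was -0.17 (SE 0.0582, 95% interval -0.29 to -0.043, edgeR adjusted p = 0.102). Without a filter on low counts the adjusted p was 0.0383, and over all 14 alternatives it ran from 0.0383 to 0.724. Cytosolic Sod1 was at 133 ± 3.05 CPM with saline and at 127 ± 4.79 CPM with valproic acid, and its 95% interval (-0.15 to 0.025 on the log2 scale) leaves room for a fall of at most 1.11-fold.

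The 4 glutathione genes among the members did not pass the test. Gclc, the catalytic subunit of glutamate-cysteine ligase, was at 41.6 ± 1.53 CPM with saline and at 41.5 ± 4.24 CPM with valproic acid (log2 interval -0.15 to 0.14). Gclm, its modifier subunit, was at 37.9 ± 3.22 and 34.5 ± 1.38 CPM (-0.29 to 0.018). Gsr, the reductase that regenerates glutathione, was at 22.4 ± 1.11 and 22.8 ± 2.60 CPM (-0.17 to 0.22), and Gpx4, which spends it on lipid peroxides, at 91.4 ± 3.96 and 90.4 ± 8.75 CPM (-0.15 to 0.12). None of these 4 intervals reaches the estimate for Hmox1. Gclm and Gsr overlap other annotated genes (Gm17494 and Gm6061, and the small RNA gene Gm24727), and Gpx4 has a pseudogene copy, so their counts may hold reads of those.

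The thioredoxin and quinone genes among the members, Txnrd1, Srxn1 and Nqo1, were likewise without a call. Txnrd1, the cytosolic thioredoxin reductase, was at 231, 276 and 282 CPM in control replicates 1 to 3 and at 280, 287 and 272 CPM in valproic acid replicates 1 to 3. Control replicate 1 alone lay low, and without it the log2 fold change went from 0.085 to 0.00029. Txnrd1 overlaps Gm38560, Gm47073 and Eid3, and may share reads with them. Srxn1, which reduces overoxidised peroxiredoxins, was at 13.7 ± 0.535 and 12.3 ± 1.69 CPM (log2 interval -0.39 to 0.071). Nqo1, the quinone reductase often read as a marker of NRF2 activity, was at 1.89, 2.03 and 1.99 CPM in control replicates 1 to 3 and at 1.81, 1.05 and 2.55 CPM in valproic acid replicates 1 to 3, from 18 to 40 counts per library. Its log2 interval, the widest of the members, runs from -0.85 to 0.57.

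**Figure D2:**
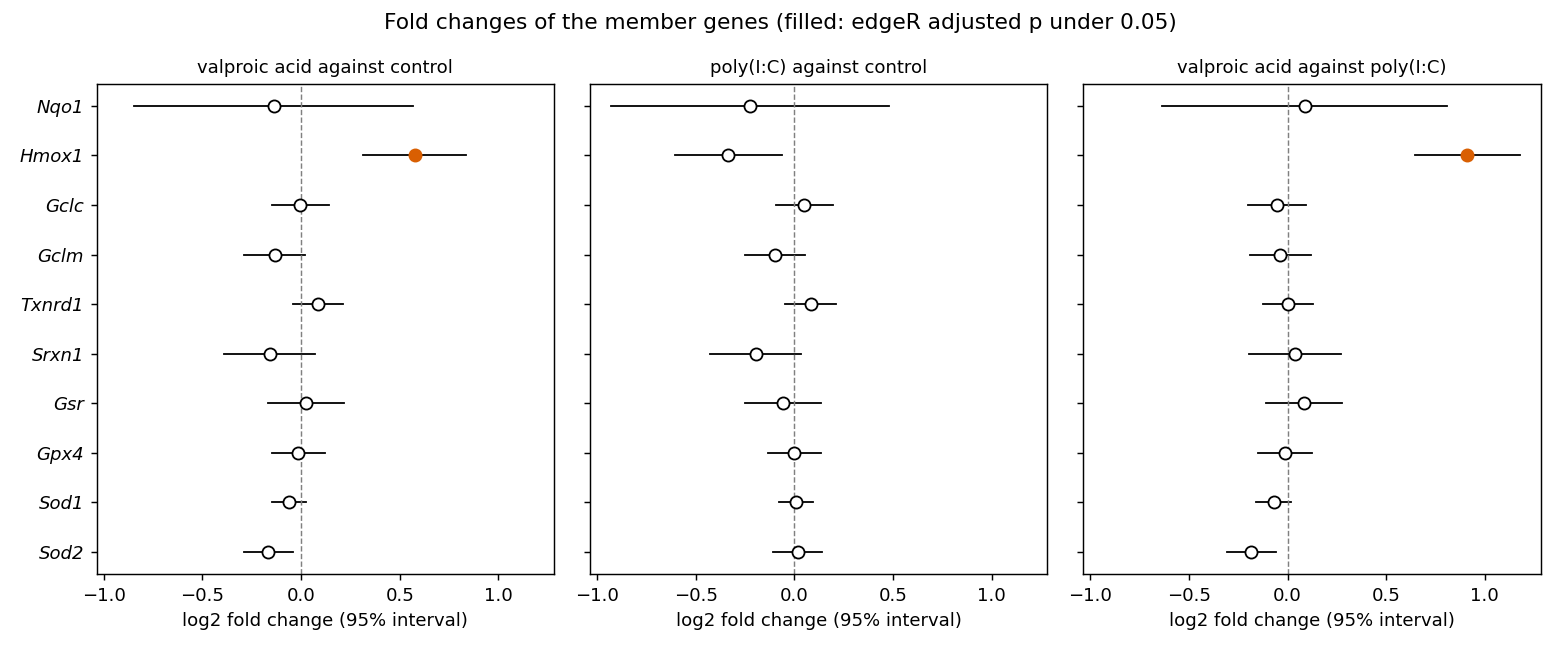
Log2 fold change of each member with its 95% interval in the 3 comparisons, from the edgeR fit of all 9 libraries, with filled points for an adjusted p under 0.05. Hmox1 carries the filled points, at 0.58 against control and 0.91 against poly(I:C), both for valproic acid, and the interval of Nqo1 is the widest.

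Poly(I:C) was compared with control to ask the same of embryos exposed to a mimic of infection. No member was called: 0 of 10 by edgeR and 0 by DESeq2, against 0.536% of all genes by edgeR, and 1 member reached an unadjusted p under 0.05, beside 12% of all genes. Of all genes 0.262% were called higher and 0.274% lower, and both comparisons with control use the same 3 control libraries. The member at an unadjusted p under 0.05 was Hmox1, at 8.68, 7.63 and 8.60 CPM in poly(I:C) replicates 1 to 3, below all 3 controls. Its group mean was 8.30 ± 0.581 CPM and its log2 fold change -0.33 (SE 0.127, 95% interval -0.61 to -0.062, edgeR adjusted p = 0.298). Srxn1 was the other member whose groups did not overlap, at 11.3, 12.1 and 12.4 CPM against 13.8, 13.1 and 14.1 CPM in control (-0.20, adjusted p = 0.510). The share of all genes without overlap was 18.4% here, so 2 of 10 members is near the background.

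The other 8 members overlapped control after poly(I:C). Gpx4 was at 91.4 ± 3.58 CPM, Sod1 at 134 ± 1.90 CPM and Sod2 at 86.9 ± 2.73 CPM, with intervals within 0.14 on the log2 scale on either side. Gclc was at 43.1 ± 0.664 CPM, Gclm at 33.4 to 37.4 CPM, Gsr at 21.6 ± 1.37 CPM and Txnrd1 at 279 ± 9.29 CPM. Nqo1 was at 1.84, 0.988 and 2.24 CPM, the low value from 18 counts in replicate 2, with a log2 fold change of -0.23 and a wide 95% interval (-0.93 to 0.48). The median log2 fold change of the members was -0.028, beside -0.0030 for all tested genes.

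The exposures were also compared directly. Hmox1 was 1.88-fold higher under valproic acid than under poly(I:C) (log2 0.91, SE 0.125, 95% interval 0.64 to 1.18, edgeR adjusted p = 0.0018), rank 30 of 17171 genes by p. It was again the 1 member called, against 2.59% of all genes, and the call held in all 6 fits that left out a library (adjusted p 0.0011 to 0.0133). With Y-linked expression as a covariate the adjusted p was 0.0324, and with Xist, where the log2 fold change was 0.87, it was 0.111. Sod2 was again the next by p, at -0.18 (SE 0.0582, edgeR adjusted p = 0.111), with all valproic acid libraries below all poly(I:C) libraries. Of all genes 21.9% did not overlap here, 16.6% had an unadjusted p under 0.05 (2 of 10 members did), and 1.42% were called higher and 1.18% lower. This comparison and the one against control share the valproic acid libraries.

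Markers of other cell types also differed between the groups that differed in Hmox1. In valproic acid against control, 3.57% of all genes were called higher and 2.78% lower. The 10 red cell markers summed to 1794 to 2093 CPM in control, 1386 to 2018 CPM after poly(I:C) and 2258 to 2619 CPM after valproic acid, and 4 of 10 rose in valproic acid against control. The 14 microglia and macrophage markers summed to 149 to 156, 134 to 146 and 133 to 146 CPM in the same order of groups, and 2 of 14 fell with valproic acid against control. Endothelial markers summed to 425 to 443, 412 to 434 and 439 to 476 CPM (2 of 10 rose with valproic acid against control). Mural cell and fibroblast markers summed to 809 to 852, 715 to 745 and 783 to 987 CPM (2 of 10 fell with valproic acid against control). In valproic acid against poly(I:C), where Hmox1 differed most, 8 of 10 red cell markers were higher, 4 of 10 mural cell and fibroblast markers were higher and 1 lower, and 1 of 10 endothelial markers was higher, against 1.42% of all genes higher and 1.18% lower. There 0 of 14 microglia and macrophage markers and 0 of 8 choroid plexus markers were called. Of the 12 neuron and progenitor genes, 4 rose and 2 fell in valproic acid against control, and 3 were higher and 1 lower in valproic acid against poly(I:C). Choroid plexus markers, at 539 to 688 CPM over all libraries, had 0 of 8 called by edgeR in valproic acid against control. In that comparison 0 of 8 had an unadjusted p under 0.05, beside 22.1% of all genes. Within the valproic acid group, Hmox1, the endothelial sum and the mural cell and fibroblast sum were each lowest in replicate 2 and highest in replicate 3. The microglia and macrophage sum and the choroid plexus sum were highest in replicate 2, and the red cell sum was lowest in replicate 3. Within the poly(I:C) group the endothelial and the mural cell and fibroblast sums were highest in replicate 2, where Hmox1 was lowest. Within the control group Hmox1 was lowest in replicate 1, where the endothelial sum was lowest and the mural cell and fibroblast sum highest. Control replicate 3 had the highest Hmox1, the highest microglia and macrophage sum and the lowest red cell sum of its group. The part of these cell types in the Hmox1 result was not tested.

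**Figure D3:**
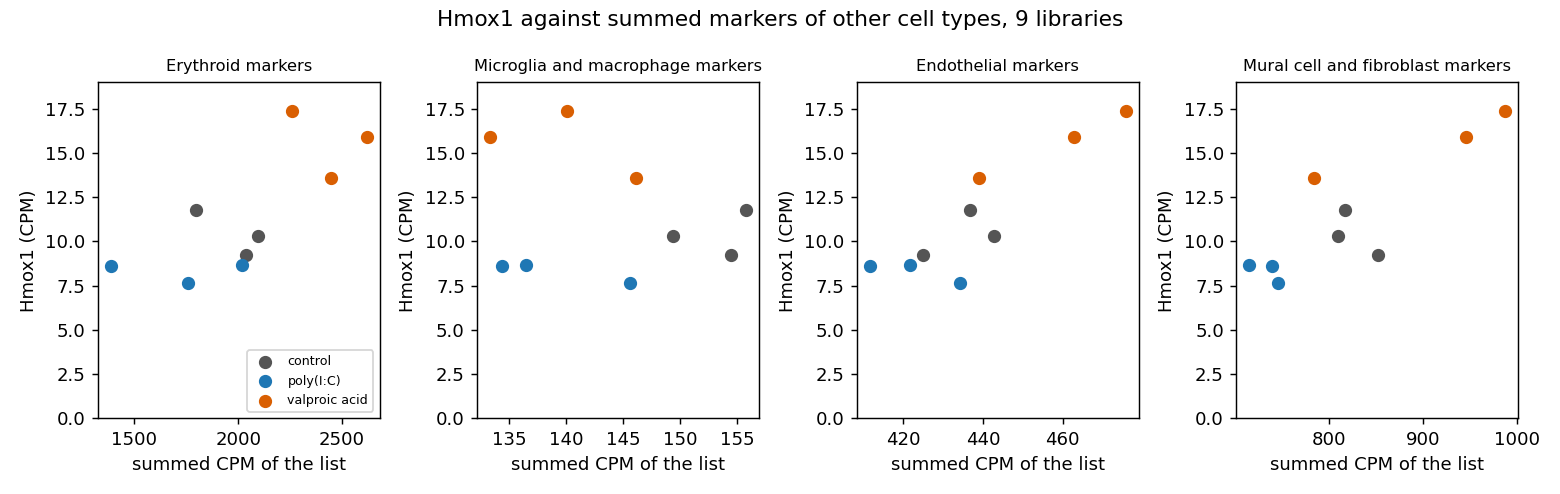
Hmox1 (vertical axis, CPM) against the summed CPM of 4 marker lists (horizontal axes, not from 0), 1 point per library. The valproic acid points have the highest red cell sums, 2258 to 2619 CPM, and lie among the lower microglia and macrophage sums, 133 to 146 CPM.

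The genes whose pattern over the 9 libraries was most like that of Hmox1, among 15369 genes compared, were Tln1, Colec12 and Vwa1 (Pearson r of log2 CPM 0.961, 0.957 and 0.952). Tln1 encodes talin, which links integrins to actin, Colec12 a scavenger receptor, and Vwa1 an extracellular matrix protein. Colec12 was at 45.5 ± 3.05 CPM in control, 39.0 ± 1.17 CPM after poly(I:C) and 54.3 ± 4.29 CPM after valproic acid. Libraries of a group share their exposure and their cell makeup, so these correlations describe the pattern only.

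The regulators of NRF2 showed no call. The shares of all genes called by edgeR against control were 6.35% for valproic acid and 0.536% for poly(I:C). Of 14 genes 0 were called in valproic acid against control or in poly(I:C) against control, by edgeR or DESeq2, and 2 and 5 passed an unadjusted p of 0.05, beside 22.1% and 12% of all genes. After poly(I:C) 8 of 14 did not overlap control, beside 18.4% of all genes, and with valproic acid 4 of 14, beside 25.6%. Nfe2l2 itself was at 13.1 ± 0.306 CPM in control, 13.7 ± 0.588 CPM after poly(I:C) and 14.8 ± 0.611 CPM after valproic acid (edgeR adjusted p = 0.831 and 0.251). Keap1 was at 59.0 ± 2.03, 64.8 ± 0.489 and 60.7 ± 4.46 CPM and Bach1 at 109 ± 3.14, 102 ± 1.29 and 105 ± 1.19 CPM; these 3 were looked up for their roles. The highest CPM of the list were those of the kinase gene Gsk3b (343 ± 6.16 CPM in control) and of the related factor Nfe2l1 (186 ± 6.24 CPM in control). Transcript levels do not show how much NRF2 protein is present, since KEAP1 acts on the protein.

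Other NRF2 targets moved in both directions with valproic acid. Of 21 tested genes 1 rose and 2 fell, beside 3.57% of all genes called higher and 2.78% lower, with a list median of -0.0017 on the log2 scale. Gsta4, a glutathione transferase for lipid aldehydes, rose from 18.9 ± 0.480 to 24.5 ± 1.14 CPM (log2 fold change 0.37, edgeR adjusted p = 0.0132). Gstm1, a glutathione transferase of the mu class, fell from 17.4 ± 1.58 to 11.8 ± 0.583 CPM (-0.56, adjusted p = 0.0057), and Me1, the cytosolic malic enzyme that makes NADPH, from 21.2 ± 1.42 to 14.3 ± 4.05 CPM (-0.56, adjusted p = 0.0367). Gstm1 was called in all 6 fits without a library. Gsta4 was lost without control replicate 1 (0.0580), and Me1 in 5 of the 6 (up to 0.106), being kept without valproic acid replicate 2. Me1 overlaps Gm38230 and, on the opposite strand, A330041J22Rik. After poly(I:C) 0 of 21 were called by edgeR or DESeq2, beside 0.536% of all genes by edgeR. An unadjusted p of 0.05 was passed by 3, beside 12% of all genes. The ferritin chains Ftl1 and Fth1 had the highest CPM there, at 426 ± 16.3 and 356 ± 11.9 CPM.

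In the thioredoxin, peroxiredoxin and glutaredoxin list 3 of 19 genes rose with valproic acid and none fell, beside 3.57% of all genes called higher and 2.78% lower, and the list median was -0.034. Txnip, which binds and inhibits thioredoxin and also restrains glucose uptake, rose from 65.0 ± 1.54 to 92.4 ± 3.46 CPM (1.42-fold, log2 fold change 0.51, SE 0.0473, edgeR adjusted p = 5.4e-05). All 3 valproic acid libraries (89.4 to 96.2 CPM) lay above all 3 controls (63.5 to 66.6 CPM) and all 3 poly(I:C) libraries (59.8 to 62.9 CPM). Txnip was called in all 14 alternatives, the Xist covariate among them (highest adjusted p = 0.0350). Txn2, the mitochondrial thioredoxin, rose 1.14-fold and Prdx6, a peroxiredoxin that acts on phospholipid peroxides, 1.15-fold (adjusted p = 0.0472 and 0.0480). Those calls were lost in all 6 fits without a library for Txn2 (up to 0.144) and in 5 of 6 for Prdx6 (up to 0.147), which was kept without valproic acid replicate 3. Reads of Txnip cannot be told apart from those of Gm15441 on the opposite strand, since the strand setting of the counting is not given in the sources used here.

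Single genes of the remaining lists changed. Of 20 genes for selenoproteins and their synthesis 1 fell with valproic acid. Of all genes 6.35% were called and 2.78% called lower, so this list is near the background. The gene was Selenop, the secreted carrier of selenium, which went from 77.2 ± 1.29 to 52.4 ± 4.35 CPM (1.48-fold lower, log2 fold change -0.56, SE 0.0604, edgeR adjusted p = 1.9e-04). Selenop was called in all 6 fits without a library and lost with Xist as a covariate (0.147). It overlaps Ccdc152 on the opposite strand. Gpx4 and Txnrd1, selenoproteins among the members, gave no call in that comparison.

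Of 12 superoxide and peroxide enzymes 1 fell with valproic acid, catalase (Cat), from 93.1 ± 0.888 to 80.9 ± 2.09 CPM (log2 fold change -0.20, edgeR adjusted p = 0.0190). Leaving out control replicate 1 ended the call (0.0631), as did leaving out control replicate 2 (0.0512) or valproic acid replicate 3 (0.0656). Of 19 genes for glutathione synthesis and use 1 fell, Ggt7, a gamma-glutamyltransferase family member, from 51.5 ± 4.85 to 41.1 ± 1.68 CPM (-0.32, adjusted p = 0.0116), lost without control replicate 1 (0.0574). Ggt7 overlaps Acss2, a gene on the opposite strand. With 1 of 12 and 1 of 19, these lists are near the background of 6.35%. Of the 9 genes of these lists that changed with valproic acid, Txnip, Selenop and Gstm1 kept their calls against control when the fit had a Y-linked covariate, and Txnip alone when it had Xist.

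After poly(I:C), 1 gene of these 3 lists was called: Glo1, the glyoxalase that uses glutathione to clear methylglyoxal, fell from 166 ± 3.40 to 117 ± 16.8 CPM (log2 fold change -0.51, SE 0.0908, edgeR adjusted p = 0.0243). Its poly(I:C) values ran from 105 to 136 CPM, all below the controls at 162 to 169 CPM. The call was lost in 5 of 6 fits that left out a library (up to 0.120) and kept without poly(I:C) replicate 3 (0.0030). Among the superoxide and peroxide enzymes 0 of 12 and among the thioredoxin genes 0 of 19 were called after poly(I:C) by edgeR or DESeq2, with 1 and 3 at an unadjusted p under 0.05. The selenoprotein list likewise had 0 of 20 called by both tools, with 4 at an unadjusted p under 0.05. The shares over all genes in poly(I:C) against control were 0.536% called by edgeR and 12% at an unadjusted p under 0.05. The members of these lists with the highest CPM were Prdx2 (684 ± 12.5 CPM in control, 696 ± 14.8 after poly(I:C)), Glrx3 (130 ± 5.41 and 127 ± 4.94), Park7 (153 ± 12.2 and 143 ± 5.22), Cat (93.1 ± 0.888 and 92.3 ± 4.05), Selenow (335 ± 18.3 and 352 ± 9.50) and Selenof (156 ± 8.15 and 150 ± 0.588).

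**Figure D4:**
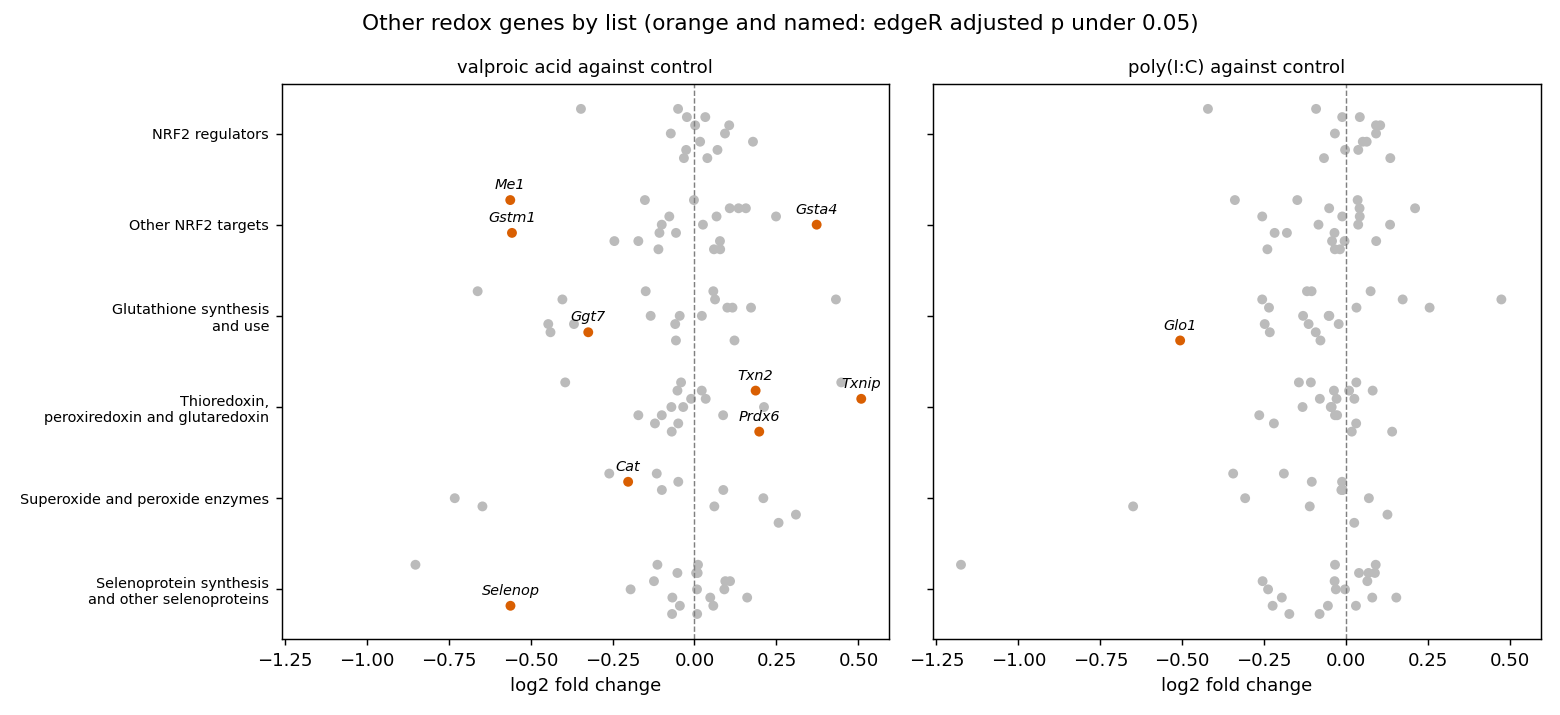
Log2 fold changes of the tested genes of 6 redox lists (rows, with vertical offsets only to part the points) in valproic acid against control and poly(I:C) against control. Orange named points passed an adjusted p under 0.05, 9 genes in the left panel and Glo1 alone in the right.

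Set directly against poly(I:C), valproic acid libraries had more Txnip (1.50-fold, edgeR adjusted p = 9.4e-06), Glo1 (1.55-fold, 0.0025) and Ftl1 (1.14-fold, 0.0483), and less Selenop (1.26-fold lower, 0.0112) and Cat (1.14-fold lower, 0.0429). Txnip and Glo1 held in all 6 fits that left out a library, though Glo1 did not with Xist as a covariate (0.176). Glo1 overlaps Dnah8 and 5 further annotated genes. Ftl1 was lost in 5 of 6 (up to 0.206) and kept without valproic acid replicate 2, Cat in all 6 (up to 0.194), and Selenop without poly(I:C) replicate 2 (0.0740). With the Y-linked covariate the adjusted p was 0.0874 for Selenop, 0.270 for Ftl1 and 0.315 for Cat, and with Xist 0.232, 0.462 and 0.540, so these 3 calls were lost in both fits. None of the 14 NRF2 regulators was called here by edgeR or DESeq2, and 0 passed an unadjusted p of 0.05. The shares over all genes in this comparison were 2.59% called by edgeR and 16.6% at an unadjusted p under 0.05.

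Heme handling beyond Hmox1 was looked up after the values of Hmox1 were seen. Hmox2, the constitutive heme oxygenase, was at 35.3 ± 3.37 CPM in control and 42.3 ± 1.32 CPM after valproic acid (log2 fold change 0.26, edgeR adjusted p = 0.115). Its groups did not overlap, which was true of 25.6% of all tested genes. Blvrb, a biliverdin reductase, was at 7.17 ± 0.818 CPM in control, 5.99 ± 0.873 CPM after poly(I:C) and 8.49 ± 1.27 CPM after valproic acid. Its difference between the exposures was 0.50 (adjusted p = 0.100). Neither passed the test. Without the filter on low counts Hmox2 was called against control (adjusted p = 0.0160) and against poly(I:C) (0.0494), and Blvrb against poly(I:C) (0.0459). With Xist as a covariate in edgeR the log2 fold change of Hmox2 against control was -0.10 (adjusted p = 0.863). Against poly(I:C) its estimates over 14 alternatives ran from 0.0041 to 0.36. Other heme genes did not all move with Hmox1. Slc48a1 was at 41.9 ± 0.728 CPM in control, 41.6 ± 1.06 CPM after poly(I:C) and 39.8 ± 0.252 CPM after valproic acid. All its valproic acid libraries lay below all controls. Fech was at 31.7 ± 4.2, 26.8 ± 1.74 and 32.98 ± 2.61 CPM in the same order, and its valproic acid and control libraries overlapped.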

How the data were processed

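Per the labels' protocols, total RNA of brain was depleted of ribosomal RNA, fragmented and made into libraries. The authors deposited raw read counts per Ensembl gene, aligned with HISAT2 to GRCm39 (mm39) per the submitters' processing notes. The counter, strand setting and annotation release were not given in the sources used here; overlapping genes (such as Sod1 with Scaf4) and pseudogene copies (such as those of Gpx4) may share reads. Symbols came from GENCODE release M21 (4675 genes had none), which also gave exon lengths.

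The 9 libraries were fitted together in edgeR 4.0.16 (R 4.3.3) with filterByExpr (min.count 10, min.total.count 15), trimmed mean of M-values factors (0.9775 to 1.018) and quasi-likelihood F-tests, two-sided. P-values were adjusted by Benjamini-Hochberg across all 17171 genes. CPM use these factors, log2 CPM for correlations add a prior count of 2, and intervals are 95% limits of the fit. DESeq2 1.42.0 was an alternative. Covariates were log2 of Xist or summed Ddx3y, Uty, Kdm5d and Eif2s3y CPM plus 1.

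Libraries of a group differed by more than counting error (chi-square per degree of freedom 3.95 to 6.46). No result of a test of the method on simulated counts is given here. Members and lists were chosen with earlier results of these data known. Named were all 10 members, up to 3 called genes per pathway list with the smallest adjusted p in each comparison with control (the 2 with the highest CPM where none), and the 3 genes most like the member with the smallest adjusted p. Genes called in valproic acid against poly(I:C) were named in addition, after their values were seen.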

Additional observations from a re-analysis of the deposited data

How the results depend on the processing

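Over 14 alternatives per comparison, 373 of 420 member values kept their direction and side of the threshold, 5 lost a call (all of Hmox1), 2 gained one (Sod2, without a filter on low counts) and 40 changed sign, none of them called. The alternatives for genes other than members were added after the data were seen.

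Replicate numbers did not pair the libraries: same-numbered libraries of different groups deviated with r from -0.0416 to 0.131, and 3 of 9 matched their own number best. With the replicate block, 912, 88 and 340 genes were called in the 3 comparisons (valproic acid with control, poly(I:C) with control, valproic acid with poly(I:C)), against 1090, 92 and 445 without it, and the members called stayed at 1, 0 and 1. The block ended the calls of Txn2 (adjusted p = 0.0642) and Prdx6 (0.0652) for valproic acid against control and of Cat in valproic acid over poly(I:C) (0.0579), and added that of Hmox2 (0.0496).

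In the same order of comparisons, 1661, 464 and 1057 genes were called without a filter on low counts, and the members called were 2 for valproic acid against control and 2 in valproic acid over poly(I:C). With a covariate for Y-linked expression 272 and 111 genes were called in the comparisons of valproic acid with control and with poly(I:C), and 0 members against control. With Xist as a covariate 19, 42 and 39 genes and 0 members were called. DESeq2 called 169 genes for poly(I:C) against control. Leaving out 1 library gave 467 to 789, 38 to 63 and 112 to 294 genes, and 0 to 1, 0 to 0 and 1 to 1 members. The causes were not tested.

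Values that changed sign were as follows. With Y-linked expression, Gsr was at -0.0030 for valproic acid against control, Gpx4 at 0.00063 for poly(I:C) against control, and Nqo1 at -0.12, Txnrd1 at -0.075 and Srxn1 at -0.013 in valproic acid over poly(I:C). With Xist, Gclc was at 0.0029, Gsr at -0.062 and Hmox2 at -0.10 for valproic acid against control, and Nqo1 at -0.32, Txnrd1 at -0.046 and Srxn1 at -0.011 in valproic acid over poly(I:C). DESeq2 put Gpx4 at 0.0013 for poly(I:C) against control.

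Leaving out 1 library moved Nqo1 from -0.46 to 0.14, Gclc from -0.089 to 0.056, Gsr from -0.072 to 0.079 and Gpx4 from -0.077 to 0.059 for valproic acid against control. For poly(I:C) against control the ranges were -0.47 to 0.048 for Nqo1, -0.0019 to 0.14 for Txnrd1, -0.029 to 0.034 for Gpx4, -0.0044 to 0.028 for Sod1 and -0.029 to 0.093 for Sod2. In valproic acid over poly(I:C) they were -0.23 to 0.37 for Nqo1, -0.14 to 0.0066 for Gclc, -0.077 to 0.0046 for Gclm, -0.019 to 0.029 for Txnrd1, -0.058 to 0.14 for Srxn1, -0.016 to 0.14 for Gsr and -0.076 to 0.060 for Gpx4. Nqo1 had 18 to 40 counts per library, and the cause of its spread was not tested.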
